A study of Mus musculus with 1 sample.

Results

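Within 1 single-cell RNA-seq library of mouse bone marrow, 168 of the 7645 cells kept (2.20%, interval 1.88 to 2.55) were neutrophil progenitors at a later step of maturation, here called later Cebpe cells. They were chosen by measured values: at least 3 transcripts of Cebpe, at least 20 of S100a8, none of Epx, Prss34 or Fn1, and under 5 of Car1. The same gate with S100a8 under 20 held 455 cells, here called early Cebpe cells, so the later cells made up 27.0% of the 623 cells of the whole gate (interval 23.5 to 30.6). Each captured transcript carries a unique molecular identifier (UMI) and is counted once. Because S100a8 and Cebpe selected the cells, differences between later and early cells describe the selection and carry no test. With 1 library there are no replicates, all intervals are exact 95% intervals that cover counting error only, and nothing below measures the spread between mice.

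The library came from control C57BL/6 mice with floxed Brd9 alleles (Brd9fl/fl) and no Cre, so Brd9 was intact. Lineage-negative, cKit-positive cells were sorted from the marrow of femora and tibiae, and the mice had received 20 mg/kg polyinosinic-polycytidylic acid (pIpC), which induces interferon, every other day for 3 doses and were sampled 8 weeks afterwards. The sample labels give a CD45.2(+) Brd9fl/fl donor and a CD45.1(+) CD45.2(-) recipient treated 4 weeks after transplant. The design text instead describes primary mice treated 4 weeks after birth, and the study's own text gives another age for primary mice. Which of these applies was not settled, and how many mice were pooled is not given in the sources used here. The sort kept cells that carry the stem cell factor receptor Kit, so neutrophils past that stage were not sampled.

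Neutrophils fill their granules in the order in which the cargo is made. Promyelocytes make primary granule proteins, such as myeloperoxidase and the serine proteases elastase, proteinase 3 and cathepsin G. Myelocytes then make secondary granule proteins, such as lactoferrin, the cathelicidin Camp and neutrophil granule protein, and maturing cells add gelatinase, surface receptors and large amounts of the calcium-binding pair S100a8 and S100a9. The transcription factor C/EBP epsilon, the product of Cebpe, is needed for the switch to secondary granules, and Gfi1 acts beside it.

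S100a8 and S100a9 are neighbours on chromosome 3 in GENCODE M21 on GRCm38. S100a8 (ENSMUSG00000056054) spans 90668978 to 90670035 and reads along the plus strand. S100a9 (ENSMUSG00000056071) spans 90692632 to 90695721 and reads along the minus strand. Cebpe (ENSMUSG00000052435) lies on chromosome 14, 54710360 to 54712174 on the minus strand. Fcnb (ENSMUSG00000026835) lies on chromosome 2, 28076378 to 28084885 on the minus strand, and Camp (ENSMUSG00000038357) on chromosome 9, 109847379 to 109849617 on the minus strand. All are protein-coding and none of these 5 overlaps another gene on its strand. The promoters of S100a8 and of 3 genes with ratios far above the usual one are shown. Each is the 250 bases before the RefSeq start on GRCm38.p6, written 5′ to 3′ along the strand of the gene, with capitals for matches to TTGCNNAA on either strand, letters that C/EBP factors can bind.
S100a8, chr3:90668821-90669070, plus strand: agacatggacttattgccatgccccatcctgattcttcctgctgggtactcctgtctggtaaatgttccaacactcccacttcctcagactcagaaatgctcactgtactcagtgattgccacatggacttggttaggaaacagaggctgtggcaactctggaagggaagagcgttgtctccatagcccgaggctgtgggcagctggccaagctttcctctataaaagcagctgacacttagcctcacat
S100a9, chr3:90695722-90695971, minus strand: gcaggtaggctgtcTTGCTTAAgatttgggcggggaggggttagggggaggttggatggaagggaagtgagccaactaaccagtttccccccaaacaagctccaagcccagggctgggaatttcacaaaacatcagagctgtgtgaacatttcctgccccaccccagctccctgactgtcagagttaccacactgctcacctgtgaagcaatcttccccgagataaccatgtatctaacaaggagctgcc
Fcnb, chr2:28084879-28085128, minus strand: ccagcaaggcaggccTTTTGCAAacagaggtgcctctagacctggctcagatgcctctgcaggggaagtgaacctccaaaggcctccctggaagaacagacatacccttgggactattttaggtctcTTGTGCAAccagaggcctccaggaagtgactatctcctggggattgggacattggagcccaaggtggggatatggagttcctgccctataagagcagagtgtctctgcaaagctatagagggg
Camp, chr9:109849457-109849706, minus strand: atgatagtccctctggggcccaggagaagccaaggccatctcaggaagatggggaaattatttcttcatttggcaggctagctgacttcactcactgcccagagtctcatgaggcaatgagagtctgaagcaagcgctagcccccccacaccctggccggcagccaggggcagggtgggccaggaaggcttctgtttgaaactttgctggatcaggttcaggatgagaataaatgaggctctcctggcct
A match was present once in the window of S100a9 and at 2 places in that of Fcnb, and S100a8 and Camp held none. Of the 11 secondary granule genes with a promoter in the table, 4 held a match (36.4%), namely Fcnb, Lcn2, Ltf and Ngp. Of 10 promoters of 9 primary granule genes none did, of 10 promoters of S100 and cytosolic genes 4 did, and among all 32851 promoters 3142 did (9.56%). No other motif was searched, and a match or its lack in this window says nothing on binding.

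The label was checked against its marker genes first. Gene levels are given as summed UMIs per 1000000 UMIs of the cells (CPM). S100a8 was at 4052 CPM in the later cells, with 20 UMIs in the lowest cell, 56 in the median cell and 370 in the highest. Cebpe was at 291 CPM in the later and 251 CPM in the early cells, with 3, 5 and 17 UMIs in the lowest, median and highest later cell. These levels are set by the rule. Pglyrp1, a bactericidal protein of secondary granules that the rule did not use, was at 606 CPM (interval 579.5 to 632.7) in the later and 278 CPM (interval 268 to 288) in the early cells, and 167 of the 168 later cells held it. In cells thinned to 5000 UMIs each it was seen in 91.1% of the later cells, 64.8% of the early cells and 1.21% of the erythroid gate. That gate is 1158 cells with at least 20 Car1 UMIs and no Cebpe, which should lack these genes, and held 1.94 CPM of Pglyrp1. S100a8 and Cebpe could not have been absent, so Pglyrp1 and S100a9, described next, are the markers that bear on the label. Ltf (lactoferrin), a secondary granule gene, and genes of more mature neutrophils were not detected: Ltf, Mmp9 (gelatinase), Mmp25, Ly6g, Fpr1, Fpr2, Adam8, Retnlg, Stfa1 and Stfa2l1 had 0 UMIs among 3327123, which allows up to 0.902 CPM each. By these genes the cells had the neutrophil markers of the label without those of more mature neutrophils. The sort took Kit-positive cells without lineage markers, and the study's lineage cocktail for marrow included Gr-1 and CD11b. Absence of late genes was therefore at least partly set by the sort and is no check of the label.

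S100a9 encodes the partner of S100a8 in the heterodimer calprotectin, and it varied widely among the later cells. The S100a9 level was 789 CPM (interval 759 to 820) in the later cells and 6.23 CPM (interval 4.82 to 7.93) in the early cells, a ratio of 127 (interval 99.2 to 164). In the later cells the count per cell was 0 in the lowest, 3 in the median and 169 in the highest cell. No S100a9 UMI was seen in 41 of the 168, although each of those held at least 20 S100a8 UMIs. The 10 cells with the most S100a9 held 48.0% of its UMIs. Across the 168 cells, each thinned to 5000 UMIs, Spearman's rho between both genes was 0.67, a description over cells of 1 library with the S100a8 range cut by the rule. At that depth S100a9 had a UMI in 54.2% of the later cells (interval 46.3 to 61.9), in 1.76% of the early and in 0.173% of the erythroid gate. Without thinning the shares were 75.6% in the later and 8.79% in the early cells, at median depths of 19256 and 22232 UMIs. The median depth of the erythroid gate was 32846 UMIs.

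**Figure D1:**
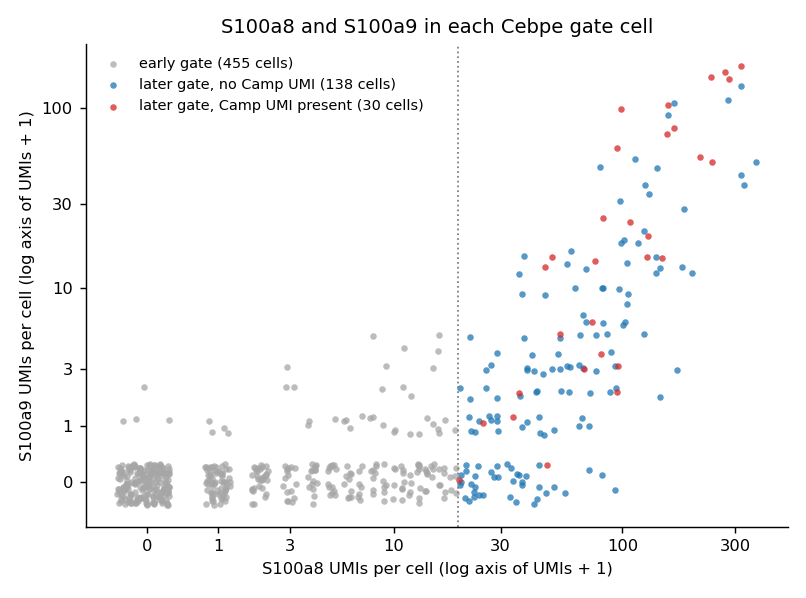
S100a8 against S100a9 UMIs in each of the 623 Cebpe gate cells, on log axes of UMIs + 1 with a small random shift, and a dotted line at the limit of 20 S100a8 UMIs. The early cells are grey, later cells without a Camp UMI blue (138) and later cells with one red (30), and the red points are most frequent at the upper right.

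The limit of 20 UMIs cut through a continuous range. The 24 cells just outside it, at 15 to 19 S100a8 UMIs, had 32.3 CPM of S100a9, 28.5 of Fcnb, 196 of Wfdc21, 16494 of Elane and 19.01 of Cd34. The 38 cells just inside, at 20 to 29, had 42.2, 34.5, 240, 16224 and 21.7 CPM of the same genes. Below the limit, 337 cells had 0 to 4 S100a8 UMIs and 118 had 5 to 19, above it 127 had 20 to 99 and 41 had 100 or more.

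Several genes changed steadily along these bands of S100a8. S100a9 went from 2.27 CPM in the lowest band to 18.0, 250 and 2457 CPM. Fcnb, a ficolin that recognises sugars on microbes, went from 3.28 to 20.6, 81.5 and 215 CPM. Wfdc21, a small secreted protein of the whey acidic protein family, went from 29.9 to 171, 346 and 619 CPM. Camp was at 0.126, 1.5, 7.95 and 73.8 CPM. In the opposite direction, Cd34, a surface marker of early progenitors, went from 128 to 31.1, 13.5 and 3.69 CPM. Within the later cells, the highest band exceeded the 20 to 99 band 9.84-fold for S100a9 (interval 8.99 to 10.8), 9.28-fold for Camp (interval 5.52 to 16.3), 2.64-fold for Fcnb (interval 2.15 to 3.25) and 1.79-fold for Wfdc21 (interval 1.60 to 2.0). Cd34 was at 0.27 of the lower band there (interval 0.054 to 0.868), from 3 and 34 UMIs.

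**Figure D2:**
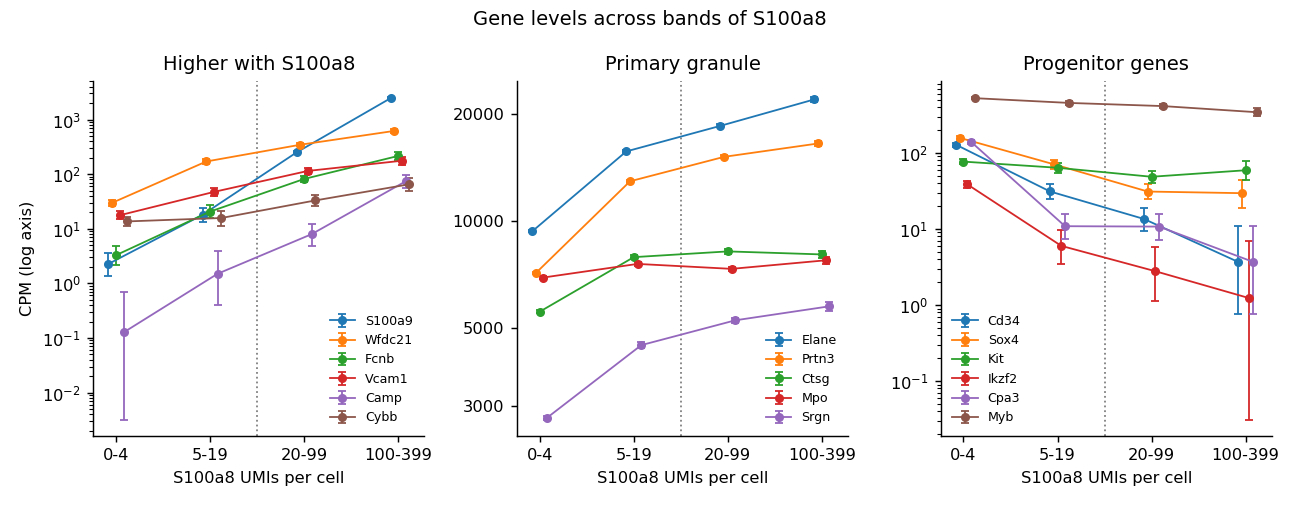
Levels of named genes in CPM (log axis) in the 4 bands of S100a8 UMIs per cell, with exact Poisson intervals as bars and a dotted line at the limit between early and later cells. S100a9 climbs from 2.27 to 2457 CPM, Elane from 9342 to 22013 CPM and Mpo stays between 6922 and 7740 CPM, while Cd34 declines from 128 to 3.69 CPM.

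Next, all genes were compared between the later and the early cells. Of 9138 genes with at least 50 UMIs over both, 75 (0.821%) were at a ratio of 2 or more and 532 (5.82%) at 0.5 or less. The intervals of all 75 lay above 1, and those of 505 of the 532 lay below 1. The later cells held 3327123 UMIs and the early cells 10592057, so the summed limit admitted genes high in early cells more easily. With no low-count filter, higher genes made up 33.3% of those called. Counts of lower genes below include genes that passed the limit only through the early cells, such as Ikzf2, Hoxa9, Flt3, Ccnd1, Cpa3 and Ifi203. The median gene had a ratio of 0.87 (log2 of -0.20, quartiles 0.72 and 1.01), so that a ratio near 0.87, not 1, was the usual case. With the total taken without mitochondrial, ribosomal protein, S100 pair and primary granule UMIs the median was 0.908. With the median gene set to 1, the counts were 119 higher and 351 lower, so the higher genes made up 25.3% of those called against 12.4% as counted. Later cells also had fewer genes per cell, a median of 3710 against 4304, and 1698 against 1804 at 5000 UMIs each.

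**Figure D3:**
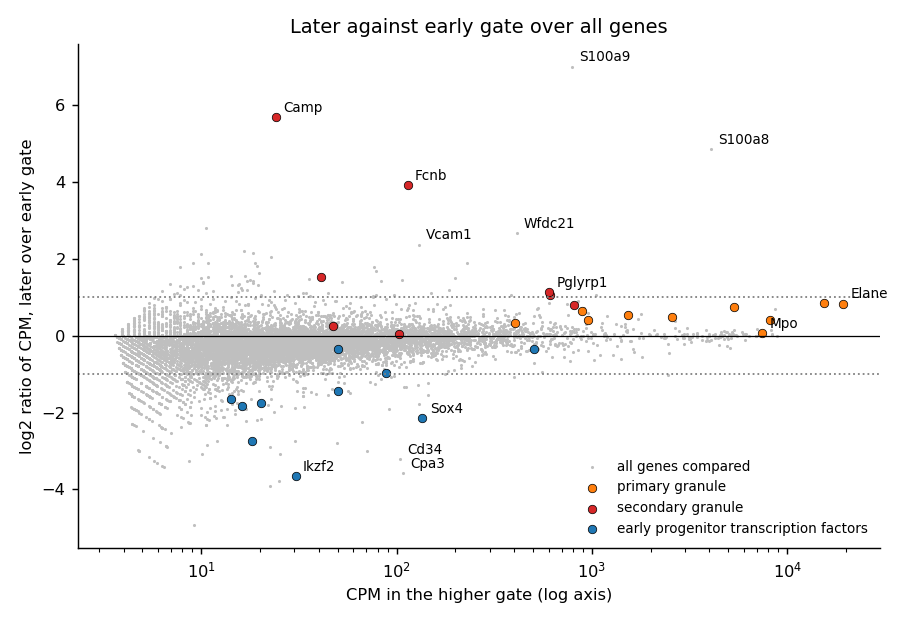
The log2 ratio of CPM, later over early cells, against the CPM in the higher gate (log axis) for each gene compared with a UMI in both, with 3 gene lists in colour and dotted lines at 2-fold. S100a9, Camp and S100a8 are farthest up and all primary granule genes lie between 0 and the upper dotted line, whereas 7 early progenitor transcription factors lie below the lower one.

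Primary granule genes were abundant in the later cells. All 10 genes of the list had a ratio above 1 with intervals above 1, none reached 2-fold, and the median ratio was 1.43 beside 0.87 over all genes. Together they made up 6.22% of all UMIs in the later cells, 4.05% in the early cells and 1.02% in the 7022 cells outside the gate. Elane (neutrophil elastase) was at 19385 CPM in the later and 10944 CPM in the early cells, a ratio of 1.77 (interval 1.75 to 1.79), and each later cell held between 82 and 704 UMIs. Prtn3 (proteinase 3) behaved alike with 15494 and 8592 CPM, a ratio of 1.80 (interval 1.78 to 1.82). Mpo (myeloperoxidase) was nearly level at 7424 and 7083 CPM, a ratio of 1.05 (interval 1.03 to 1.06). Srgn, the proteoglycan that packs granule proteases, had a ratio of 1.67 (interval 1.64 to 1.70) and the protease inhibitor Serpinb1a one of 1.54 (interval 1.48 to 1.61). Ctsg, Ms4a3, Nkg7, Cd63 and Cst7 had ratios from 1.25 to 1.45. Along the S100a8 bands Elane kept climbing, at 9342, 15701, 18536 and 22013 CPM, whereas Ctsg (cathepsin G) was at 5544, 7901, 8201 and 8042 CPM. The erythroid gate held 149 CPM of Elane and 21.3% of its cells had an Elane UMI at 5000 UMIs, far under the 19385 CPM and 100% (interval 97.8 to 100) of the later cells.

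Secondary granule genes ranged from absent to present in every cell. Of 13 listed genes, 8 could be compared, 5 were past 2-fold higher (the background over all genes is 0.821%), none was lower, and the median ratio was 2.14. Of the 5, Camp passed the limit on summed UMIs only through the later cells, with 80 UMIs there and 5 in the early cells. Its place in this count was therefore partly set by that limit. Fcnb was at 114 CPM (interval 103 to 126) against 7.65 CPM, a ratio of 14.9 (interval 11.7 to 19.2), and 109 of the 168 later cells held it. At 5000 UMIs it was seen in 36.3% of the later cells, 4.19% of the early cells and in none of the erythroid gate, which held 0.135 CPM. Hp (haptoglobin, which binds free haemoglobin) was at 611 against 292 CPM, a ratio of 2.09 (interval 1.98 to 2.21), and every later cell held between 1 and 36 UMIs. Cybb, the heme-binding subunit of the NADPH oxidase, was at 40.9 against 14.2 CPM, a ratio of 2.89 (interval 2.27 to 3.67), and its partner Cyba at 805 against 462 CPM, a ratio of 1.74 (interval 1.66 to 1.83). Lcn2 (lipocalin 2, which withholds iron from bacteria) was at 47.2 against 39.9 CPM, a ratio of 1.18 (interval 0.98 to 1.42). Lyz2 (lysozyme) was at 103 against 99.9 CPM, a ratio of 1.03 (interval 0.91 to 1.17). Both intervals held 1 but lay above the usual ratio of 0.87. The level of Lyz2 leaned on few cells: the highest later cell held 74 UMIs, and the median was 1 in later and 2 in early cells. At 5000 UMIs it was seen in 28.6% of the later and 34.1% of the early cells. Ngp had 12 UMIs in 12 cells, Chil3 34 UMIs in 19 cells, Orm1 11 UMIs and Olfm4 1 UMI.

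Camp, the antimicrobial cathelicidin, was carried by few of the later cells. It had 80 UMIs in 30 cells, a level of 24.0 CPM (interval 19.1 to 29.9), against 5 UMIs in the early cells (0.472 CPM), a ratio of 50.9 (interval 20.9 to 161). The lowest and the median later cell had 0 Camp UMIs and the highest 19, and 10 cells held 73.8% of them. At 5000 UMIs per cell, 7.14% of the later cells (interval 3.75 to 12.1) and no cell of the erythroid gate had a Camp UMI. The 30 later cells with a Camp UMI had 2430 CPM of S100a9 (interval 2300 to 2566), and the 138 without had 474 CPM (interval 449 to 500). Fcnb was at 220 CPM (interval 182 to 264) in the former and 93.9 CPM (interval 82.8 to 106) in the latter. For Elane the levels were nearer, 21425 CPM with a Camp UMI (interval 21035 to 21821) against 18993 CPM without (interval 18832 to 19156). These sets of cells were defined by the measured Camp count, so the values are a description. The cells with a Camp UMI also held more S100a8, a median of 95.5 UMIs against 48.5.

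Genes of the tertiary granules and of the late cell surface were scarce. Of 12 listed genes 2 had enough UMIs to compare, and 1 of them was past 2-fold higher (against 0.821% of all genes). This was Itgam (the integrin CD11b) at 23.4 against 10.6 CPM, a ratio of 2.22 (interval 1.64 to 2.99). Itgam belongs to the usual lineage panel of such sorts, and at 5000 UMIs it was seen in 13.1% of the later cells and 0.518% of the erythroid gate. Of the list, 6 genes were at 0 in the later cells, and Mmp8, Cd177, Cxcr2 and Padi4 had 1 to 7 UMIs each.

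Among S100 and other cytosolic genes, 3 of 8 compared were past 2-fold higher (S100a8, S100a9 and Wfdc21, against 0.821% of all genes), 1 was past 2-fold lower (against 5.82%) and the median ratio was 1.44. The rule fixed the direction of S100a8, which is in this count and median. Wfdc21 was at 412 against 65.3 CPM, a ratio of 6.31 (interval 5.76 to 6.93), and 161 of the 168 later cells held it. At 5000 UMIs it was seen in 79.8% of the later cells, 22.5% of the early cells and 0.432% of the erythroid gate. Its level was 3.56 CPM in the Elane gate, 850 cells with at least 20 Elane UMIs and no Cebpe, and 0.702 CPM in the erythroid gate. At 5000 UMIs, 82.2% of the Elane gate cells had an Irf8 UMI and 82.8% one of F13a1, both listed monocyte markers. The Elane gate therefore cannot stand for neutrophil precursors alone. The gene that was lower was S100a10, the annexin partner p11, at 44.2 against 112 CPM, a ratio of 0.39 (interval 0.33 to 0.47). S100a11 and Anxa1 (annexin A1) had ratios of 1.28 (interval 1.21 to 1.34) and 1.60 (interval 1.48 to 1.72).

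The subunits of the NADPH oxidase, which makes superoxide in phagocytes, all lay above the usual ratio of 0.87: 5 of 6 had intervals above 1, 1 (Cybb) was past 2-fold (against 0.821% of all genes), and the median ratio was 1.60. Ncf4 was at 125 against 68.9 CPM, a ratio of 1.81 (interval 1.60 to 2.04). Ncf1 had a ratio of 1.45 (interval 1.29 to 1.64) and Rac2, the GTPase that switches the oxidase on, one of 1.42 (interval 1.34 to 1.51). In the monocyte gate, 61 cells with at least 3 Fn1 UMIs and no Cebpe, Cybb was at 250 CPM, against 40.9 CPM in the later cells.

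Among transcription factors of neutrophils, of 13 compared, 2 were past 2-fold higher (against 0.821% of all genes), none was lower (against 5.82%), and the median ratio was 1.27. Cebpe, a gene of the rule, is among the 13. The higher genes were Id2, an inhibitor of basic helix-loop-helix factors, at 18.3 against 7.08 CPM (ratio 2.59, interval 1.82 to 3.68), and Ets1 at 15.9 against 6.80 CPM (ratio 2.34, interval 1.61 to 3.39). Cebpd was at 160 against 90.9 CPM, a ratio of 1.77 (interval 1.59 to 1.96), and Cebpb at 153 against 94.5 CPM, a ratio of 1.62 (interval 1.45 to 1.80). Cebpa, the family member that starts the granulocyte path, went the other way at 39.97 against 59.5 CPM, a ratio of 0.67 (interval 0.55 to 0.81), below the usual ratio of 0.87. Runx1, Lmo4 and Etv6 did so too, with ratios of 0.68, 0.69 and 0.74. Of the 13 factors, 9 had intervals above 1 and these 4 had intervals below 1. Gfi1 was at 82.3 against 65.0 CPM (ratio 1.27, interval 1.10 to 1.46), with 14.7 CPM in the Elane gate and 0.792 CPM in the monocyte gate.

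Factors of earlier progenitors were lower in the later cells. Of 13 listed, 10 were compared, and all 10 had intervals below 1 and lay below the median gene. Past 2-fold lower were 7 (the background is 5.82%), and the median ratio was 0.31. Of the 7, Ikzf2, Hoxa9, Gata2, Erg and Meis1 passed the limit of 50 UMIs only through the early cells, where they were high. Sox4 was at 30.7 CPM (interval 25 to 37.2) against 136 CPM, a ratio of 0.23 (interval 0.18 to 0.28). Ikzf2 (Helios) had 8 UMIs, at 2.40 against 30.4 CPM, a ratio of 0.079 (interval 0.034 to 0.158). Hoxa9 had a ratio of 0.15 (interval 0.067 to 0.288), and Gata2, Erg and Meis1 had ratios from 0.28 to 0.32. Irf8, which directs progenitors towards monocytes, was at 18.3 against 50.1 CPM (ratio 0.37, interval 0.28 to 0.48), and its 61 UMIs lay in 12 cells, with 20 in the highest. Myc was at 45.1 against 88.5 CPM (ratio 0.51, interval 0.43 to 0.61). Myb, needed to keep progenitors dividing, stayed high at 395 against 506 CPM, a ratio of 0.78 (interval 0.73 to 0.83), and every later cell held it.

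Surface receptors included genes on either side of the usual ratio. Cd34 had 37 UMIs in 25 later cells, 11.1 CPM (interval 7.83 to 15.3) against 104 CPM, a ratio of 0.11 (interval 0.075 to 0.149). At 5000 UMIs it was seen in 2.38% of the later cells, no more than the 2.94% of the erythroid gate, and in 35.0% of the early cells. Flt3 had 2 UMIs and Csf1r, the receptor of macrophage colony-stimulating factor, 11. Kit itself, the receptor used in the sort, was at 51.1 against 73.5 CPM, a ratio of 0.70 (interval 0.59 to 0.82). Csf3r, the receptor of granulocyte colony-stimulating factor, was level at 43.3 against 41.6 CPM (ratio 1.04, interval 0.86 to 1.26). Ly6c2 was at 1056 against 512 CPM (ratio 2.06, interval 1.97 to 2.15), Csf2ra had a ratio of 1.53 (interval 1.33 to 1.75) and the Fc receptor gene Fcgr3 one of 1.39 (interval 1.26 to 1.52). Of 11 receptor genes compared, 1 was past 2-fold higher (against 0.821% of all genes) and 3 lower (against 5.82%), with a median ratio of 0.85, close to that of all genes.

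**Figure D4:**
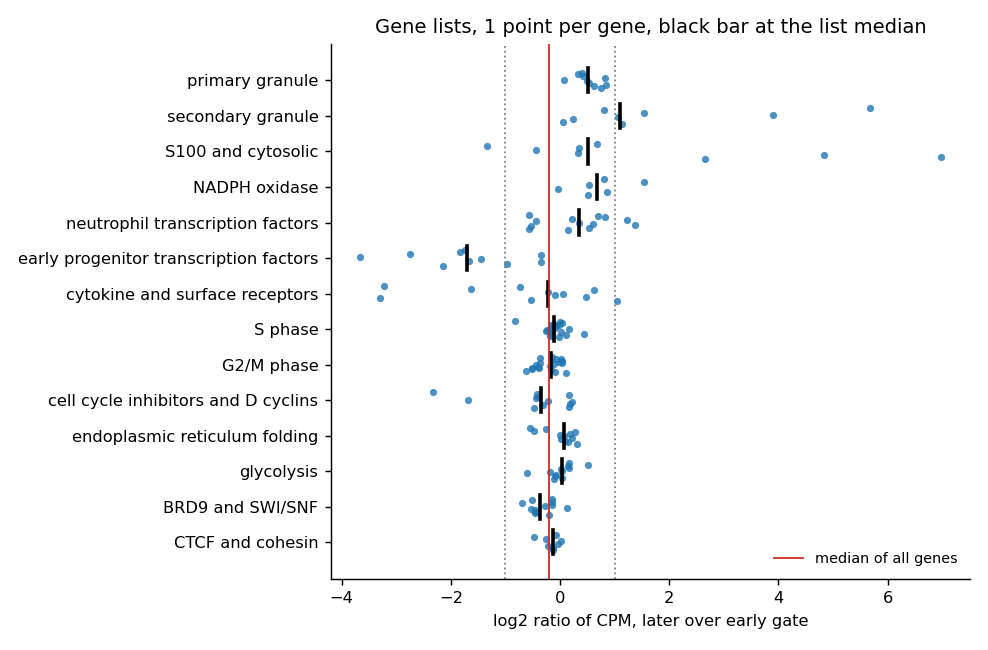
The log2 ratio of CPM, later over early cells, of each gene in 14 lists, with a black bar at the median of the genes plotted, a red line at the median of all genes and dotted lines at 2-fold. Of these 14 medians, that of the secondary granule list lies farthest to the right and that of the early progenitor transcription factors farthest to the left, while the medians of both cell cycle lists sit near the red line.

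The later cells still expressed cell cycle genes. None of 20 S phase and 20 G2/M phase genes was past 2-fold in either direction, and their median ratios, 0.93 and 0.89, were near the 0.87 of all genes. Rrm2, a subunit of ribonucleotide reductase, was the S phase gene with the highest ratio, at 165 against 122 CPM (ratio 1.36, interval 1.23 to 1.5). Mki67 was at 85.1 against 121 CPM (ratio 0.70, interval 0.61 to 0.80) and Top2a at 135 against 209 CPM (ratio 0.65, interval 0.58 to 0.72). At 5000 UMIs per cell the median later cell held 11 UMIs of the S phase list (quartiles 9 and 15) and 4 of the G2/M list (quartiles 2 and 7), and the median early cell 12 and 5. The erythroid gate had medians of 22 and 16. Among cyclins and inhibitors, 2 of 12 were past 2-fold lower (against 5.82% of all genes), Ccnd1 at 2.71 against 13.5 CPM (ratio 0.20, interval 0.090 to 0.391) and Cdkn1a at 3.91 against 12.6 CPM (ratio 0.31, interval 0.16 to 0.55). Cdk6 was at 299 against 404 CPM (ratio 0.74, interval 0.69 to 0.79).

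Genes that serve secretion and energy supply moved little. The 12 endoplasmic reticulum folding genes had a median ratio of 1.06 and the 12 glycolysis genes one of 1.02, and none was past 2-fold. Calr, the chaperone calreticulin, was lower at 1238 against 1807 CPM (ratio 0.68, interval 0.66 to 0.71), while Hspa5 was level (ratio 0.995, interval 0.955 to 1.04). Eno1, the glycolytic enolase, was at 279 against 195 CPM (ratio 1.43, interval 1.32 to 1.54). Ribosomal protein genes made up 32.8% of UMIs in the later and 33.0% in the early cells, and mitochondrial genes 2.97% and 2.78%.

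Brd9, the gene that the study deletes in other mice, was at 24.3 CPM (interval 19.3 to 30.3) in the later and 27.1 CPM in the early cells, a ratio of 0.90 (interval 0.69 to 1.15), from 81 UMIs in 65 cells. The 12 genes of the BRD9 and SWI/SNF list had a median ratio of 0.78, with none past 2-fold, and Smarca4, the ATPase of the complex, was at 45.7 against 66.5 CPM (ratio 0.69, interval 0.57 to 0.82). Of the 108 genes whose coordinates were looked up, 18 overlap another gene on their strand and have less certain counts, among them Smarca4, Itgam, Irf8, Ikzf2, Hoxa9, Meis1, Clec4a2, Mgst2, C3, Cpa3, Top2a and Ifi203. The 8 CTCF and cohesin genes had a median ratio of 0.92, with Ctcf at 119 against 126 CPM (ratio 0.94, interval 0.84 to 1.06). Among 12 interferon response genes 5 could be compared, 1 was past 2-fold lower (Ifi203, ratio 0.29, interval 0.17 to 0.45, against 5.82% of all genes), none was higher and the median ratio was 1.11.

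Beyond the lists, the genes with the highest ratios at 50 CPM or more were led by Vcam1 and Clec4a2. Vcam1, an adhesion molecule better known from vessel walls and marrow stroma, was at 130 CPM (interval 118 to 142) against 25.1 CPM, a ratio of 5.16 (interval 4.42 to 6.03). It had a UMI in 119 of the 168 later cells, with a median of 2 and a highest count of 15, and stood at 1.88 CPM in the Elane gate and 0.216 CPM in the erythroid gate. The C-type lectin genes Clec4a2, Mgl2 and Clec5a had ratios of 3.70 (interval 3.33 to 4.11), 3.18 (interval 2.67 to 3.79) and 2.61 (interval 2.13 to 3.21). G0s2, an inhibitor of the lipase that breaks down stored fat, was at 76.3 against 22.4 CPM (ratio 3.41, interval 2.85 to 4.09). Mgst2, a glutathione transferase of leukotriene synthesis, was at 199 against 70.2 CPM (ratio 2.83, interval 2.54 to 3.15), and Ptgr1, which inactivates leukotriene B4 and prostaglandins, at 150 against 69.2 CPM (ratio 2.17, interval 1.93 to 2.43). C3, the central complement protein, was at 83.6 against 31.5 CPM (ratio 2.65, interval 2.25 to 3.12). Trem3, Rflnb, Dmkn, Hsdl2 and Nucb2 had ratios from 2.06 to 2.71. At 5000 UMIs per cell, Vcam1 was seen in 38.7% of later cells (interval 31.3 to 46.5), in 59 of 454 early cells and in 0.173% of the erythroid gate.

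Among the lowest, Cpa3 (carboxypeptidase A3 of mast cells and basophils) had 30 UMIs in 7 later cells, with 24 in the highest, 9.02 against 107 CPM, a ratio of 0.084 (interval 0.056 to 0.121). Ifitm1 and Ifitm3, interferon-induced membrane proteins of early progenitors, had ratios of 0.12 (interval 0.082 to 0.180) and 0.34 (interval 0.29 to 0.41). Apoe, Adgrg1 and Fabp5 had ratios from 0.21 to 0.29. The remaining genes chosen by the same rule, among them Adgrl4, Bmyc, Rab38, Dapp1, Hmgn1 and Hist1h2ac, had ratios from 0.36 to 0.43.

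Against the 7022 cells outside the gate, 13408 genes were compared, of which 455 (3.39%) were at 2-fold or higher and 5008 (37.4%) at 0.5 or lower, with a median ratio of 0.62. Higher genes made up 8.33% of those called, and 32.3% with the median gene set to 1. All 10 primary granule genes and 7 of 9 secondary granule genes compared were past 2-fold higher, and Lyz2 was past 2-fold lower. The genes with the highest ratios at 100 CPM or more, beside the gate genes, were S100a9 at 94.4 (interval 88.0 to 101), Wfdc21 at 48.4 (interval 44.7 to 52.3), Vcam1 at 34.1 (interval 29.9 to 38.8), Fcnb at 29.9 (interval 26.1 to 34.2), Pglyrp1 at 16.2 (interval 15.4 to 17.1) and Rflnb at 16.1 (interval 14.2 to 18.3). Clec4a2 followed at 13.4 (interval 12.3 to 14.6), Trem3 at 10.6 (interval 9.94 to 11.2) and Elane at 9.47 (interval 9.39 to 9.55), and Prss57, Rgcc, Cldn15 and Ms4a3 lay between 7.75 and 8.96. Prss57, a serine protease stored in primary granules, was at 534 CPM in the later and 371 CPM in the early cells.

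**Figure D5:**
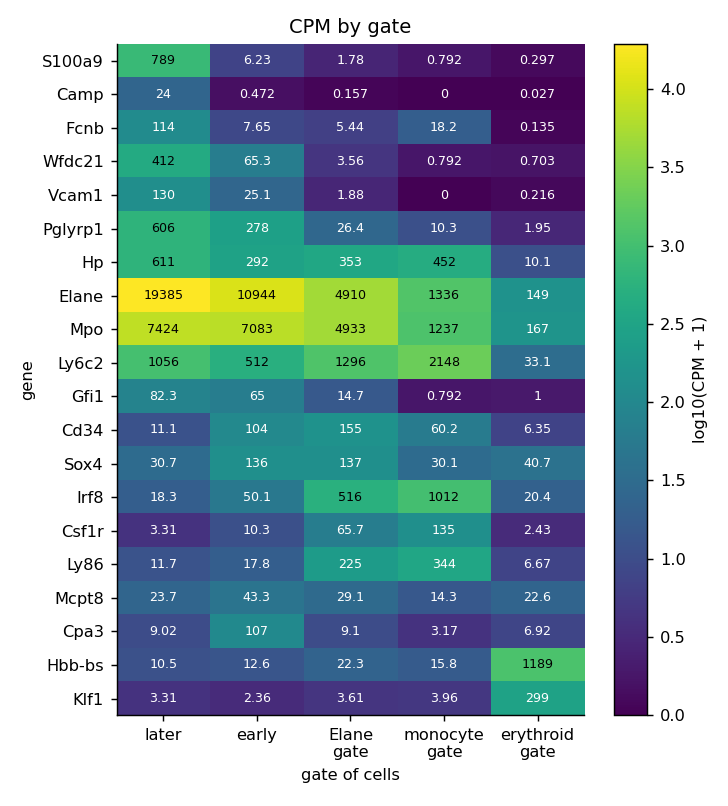
CPM of 20 genes in the later and early cells and in the Elane, monocyte and erythroid gates, coloured by log10(CPM + 1), with the CPM written in each field. S100a9, Wfdc21, Vcam1 and Fcnb are highest in the later cells, Irf8, Csf1r and Ly86 in the monocyte gate, and Hbb-bs and Klf1 in the erythroid gate.

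Most markers of other cell types were low in the later cells. The monocyte list summed to 139 CPM in the later cells, 217 CPM in the early cells and 4558 CPM in the monocyte gate, with Fn1 at 0 by the rule. The basophil and mast list summed to 134 CPM in the later and 297 CPM in the early cells, with Prss34 at 0 by the rule, and 4 of 6 compared genes were past 2-fold lower (the background is 5.82%). Hdc, the histidine decarboxylase that makes histamine, accounted for 93.5 CPM of the later sum. It was seen in 30.4% of the later cells and 1.29% of the erythroid gate at 5000 UMIs. Against the other cells Hdc was past 2-fold higher at a ratio of 2.73 (1 of 7 listed genes, against 3.39% of all genes), and the other 6 were past 2-fold lower (against 37.4%). Its ratio over the Elane gate was 3.825. The eosinophil list summed to 7.21 CPM, with Epx at 0 by the rule and Ear1 and Ear2 at 0. The dendritic list summed to 28.6 CPM with Siglech and Cd209d at 0, and the lymphoid list to 2.40 CPM, with 5 of 8 genes at 0. The stem cell list summed to 11.4 CPM against 28.7 CPM in the early cells, with Procr and Hoxb5 at 0. The erythroid list summed to 74.2 CPM against 6914 CPM in the erythroid gate. The megakaryocyte list was an exception at 83.6 against 68.7 CPM, of which Pf4 gave 73.0 CPM. Of the 243 Pf4 UMIs, 95.1% lay in 10 cells and 205 in 1 cell. The part of such cells in the other results was not tested. Doublet calls marked 1 of the 168 later and 12 of the 455 early cells, and without all doublet calls 74 genes were higher and 498 lower.

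The excluding genes and the Cebpe limit left out other cells high in S100a8. Of 258 cells kept with at least 20 S100a8 UMIs, 168 (65.1%, interval 59.0 to 70.9) were in the gate, 51 had under 3 Cebpe UMIs and 39 failed an excluding gene, 35 of them through Prss34. Those 39 cells held 3076 CPM of S100a8, 654 CPM of S100a9, 15409 CPM of Elane and 111 CPM of Fcnb. The 51 cells of low Cebpe held 3324 CPM of S100a8, 375 CPM of S100a9, 18483 CPM of Elane and 76.0 CPM of Fcnb. Of these 51, 5 had no Cebpe UMI.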

How the data were processed

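Sorted cells of 1 control library were profiled with the 10x Chromium 3′ kit v3.1. The deposited values are UMI counts, whole numbers per gene and barcode, which the authors made with Cell Ranger 6.0.2 on mm10 and did not normalize. The labels also describe a bulk RNA kit, which does not match these values.

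The study's filter was applied: between 1000 and 50000 UMIs, between 1000 and 6500 genes, limits not included, and a mitochondrial share below 7%. It kept 7645 of 8817 barcodes. Kept cells of the gate had 2586 to 47840 UMIs, and later cells 6655 to 42206. No doublets were removed. Scrublet in scanpy 1.11.5 (expected rate 6%, seed 1) marked 268 cells, and their removal was an alternative.

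Levels were summed UMIs per 1000000 with exact Poisson intervals, ratios had exact conditional binomial intervals and shares Clopper-Pearson intervals, all at 95% (scipy 1.17.1). A count of 0 was bounded by 3 UMIs. Genes were called past 2-fold at 50 or more UMIs over both sets of cells, with no test. Equal-depth values used cells thinned to 5000 UMIs, leaving out 1 early cell. Named genes were the 20 highest and 20 lowest by ratio at 50 CPM or more, the 15 highest against other cells at 100 CPM or more, and genes of 24 lists. The members and lists were chosen with earlier results of these data known. The ratio step was tested on simulated data: of 200 changed genes among 9138, 98.5% were placed above or below 1 correctly by their interval, and the true fold lay within 95.7% of intervals. Of 108 genes whose coordinates were looked up, all 108 were found in GENCODE M21. The Brd9-deleted library is not analysed here. Values of some listed genes are not reported here.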

Additional observations from a re-analysis of the deposited data

How the results depend on the processing

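The 5 counts (later cells, and genes past 2-fold in each direction against early and other cells) were recomputed under 16 alternatives. Of 80 values, 67 were within 1.5 times the count as reported and 13 were not. The later gate held 109 cells at a limit of 40 S100a8 UMIs and 102 at a limit of 5 Cebpe UMIs. Against the early cells, 36 genes were higher and 256 lower after thinning to 5000 UMIs, 119 and 351 with the median gene set to 1, 30 and 98 at 200 or more UMIs per gene, and 902 and 1809 with no low-count filter. After thinning, 23 of the 75 higher and 69 of the 532 lower genes were called again. Against the other cells, 1444 genes were higher and 3020 lower with the median gene set to 1, and 5353 were higher with no low-count filter, where higher genes made up 52.5% of those called. Setting the median to 1 moved the higher share there from 8.33% to 32.3%.

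Of 3343 gene ratios, 715 moved (205 of the 1663 over the early cells), as did 64 of 768 counts for gene lists, and 1 ratio reversed: Prg2, an eosinophil granule gene, went to 4.36 against the other cells without the limits on Epx, Prss34, Fn1 and Car1. The ratios over the early cells reversed for no called gene named. Camp ranged from 31.3 at a limit of 10 S100a8 UMIs to 194.5 at a limit of 5 Cebpe UMIs, and had no value after thinning. S100a9 ranged from 89.8 to 190, Fcnb from 12.3 to 17.2, Vcam1 from 3.92 to 5.94, Wfdc21 from 5.78 to 7.27, Cd34 from 0.043 to 0.177 and Elane from 1.71 to 2.04. Ly6c2 fell below 2-fold in 2 settings, with a lowest value of 1.77, Hsdl2 and Nucb2 in 5 and 4, and Trem3 in 1, at 1.94. Pf4 ranged from 0.37 to 15.5. No paired analysis was possible because there is 1 library, and no replicate could be left out. Depth limits genes under about 50 UMIs, such as Ngp, Chil3 and Orm1, whose levels rest on 11 to 34 UMIs.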

Other observations

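Barcodes outside the cell filter entered no comparison. Of the 1172 removed barcodes, 10 had at least 20 S100a8 UMIs (0.853%, interval 0.410 to 1.56), and 9 of them were over the upper limits on UMIs or genes, with a median of 59756 UMIs. They held 5857 CPM of Elane and 108 CPM of Irf8. The later gate was met by 1 removed barcode, with 119 S100a8, 3 S100a9 and 288 Elane UMIs and a mitochondrial share of 7.72%. Ltf had 2 UMIs and Retnlg 1 over all removed barcodes.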
